A study of Mus musculus with 8 samples.

Results

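The keratin gene family was described across 8 bulk tumour transcriptomes. Of 55450 genes in the count table, 54 carried a symbol made of Krt, a number and at most 1 letter. Krt74, annotated in mouse as a pseudogene, was left out, which gave 53 keratin genes, and Krtap genes were not members. The tumours were grown in the flank of C57BL/6 mice from MOC1, a single mouse line of oral squamous cell carcinoma, so all of them share that line, strain and site. Every mouse received anti-PD-1, an antibody against a checkpoint receptor of T cells, together with an antisense oligonucleotide (ASO) for 32 days. The ASO targeted Smyd3, a lysine methyltransferase, in 5 tumours, of which 2 were labelled responders (numbers 1 and 3), 2 non-responders and 1 (number 2) had no response label. It was a control ASO in the other 3 tumours. The non-responders carry no replicate number in the labels and are called 1 and 2 here only in listed order. Each sample title also ends in its own number in brackets, whose meaning the titles do not give. The ages of the mice, and which cells took up the ASO, are not given in the sources used here.

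Keratins form the intermediate filaments of epithelial cells, and each filament is built from pairs of an acidic type I and a basic type II keratin. Which pair a cell makes follows its layer and state: Krt5 and Krt14 in the basal layer, Krt1 and Krt10 above it in skin, Krt4 and Krt13 above it in the lining of the mouth, Krt8 and Krt18 in simple epithelia. Krt6a, Krt6b, Krt16 and Krt17 are induced in wounds and in many squamous carcinomas, and a further large set builds the hair shaft and the inner root sheath of the hair follicle. In mm10 the type I genes lie together on chromosome 11 and the type II genes on chromosome 15, where Krt18, a type I gene, also lies.

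The libraries held 22103853.1 to 27258700.1 expected counts, and levels are counts scaled to library size (CPM) after TMM scaling. Smyd3 itself stood at 8.67 and 4.38 CPM in the responders, 4.58 CPM in the unmarked tumour, 9.25 and 4.88 CPM in the non-responders, and 10.7, 11.9 and 10.6 CPM in the controls. All Smyd3 ASO tumours were below all controls, but the difference did not pass the test (log2 fold change -0.80, edgeR FDR 0.246). Epithelial identity was checked on 11 markers other than keratins, such as Epcam and Cdh1, which summed to 1686 to 2169 CPM in the Smyd3 ASO tumours and 1700 to 2403 CPM in the controls, with none at 0. The Smyd3 ASO tumours also held skeletal muscle transcripts. A list of 12 muscle markers summed to 603 to 10439 CPM in them and to 31.8 to 88.0 CPM in the controls. The part of muscle in the keratin values was not tested. In bulk tumours, fewer cells of a type and less RNA per cell cannot be told apart. The labels do not say that each library came from a separate mouse, so p-values measure the spread between these libraries, which may in part be technical.

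Keratins took 2.704% and 2.23% of all counts in the responders, 3.28% in the unmarked tumour, 4.72% and 2.97% in the non-responders, and 3.57%, 3.86% and 3.27% in the controls. The responders held the smaller shares, and the 2 non-responders lay on either side of the 3 controls. A few genes made most of this RNA. Krt5, Krt14 and Krt6a together gave 73.8% to 80.5% of keratin CPM in every tumour. Per kilobase of exon, the order in the Smyd3 ASO tumours was Krt14 (mean 5591 CPM per kb), Krt5 (4251) and Krt6a (2221), and the controls had the same order, with 6969, 5183 and 2133 CPM per kb. Type II keratins summed per kilobase to 0.828 to 1.07 times the type I keratins in the 5 Smyd3 ASO tumours and to 0.853 to 1.01 times in the 3 controls, so the totals of the pairing types stayed close in each tumour.

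**Figure D1:**
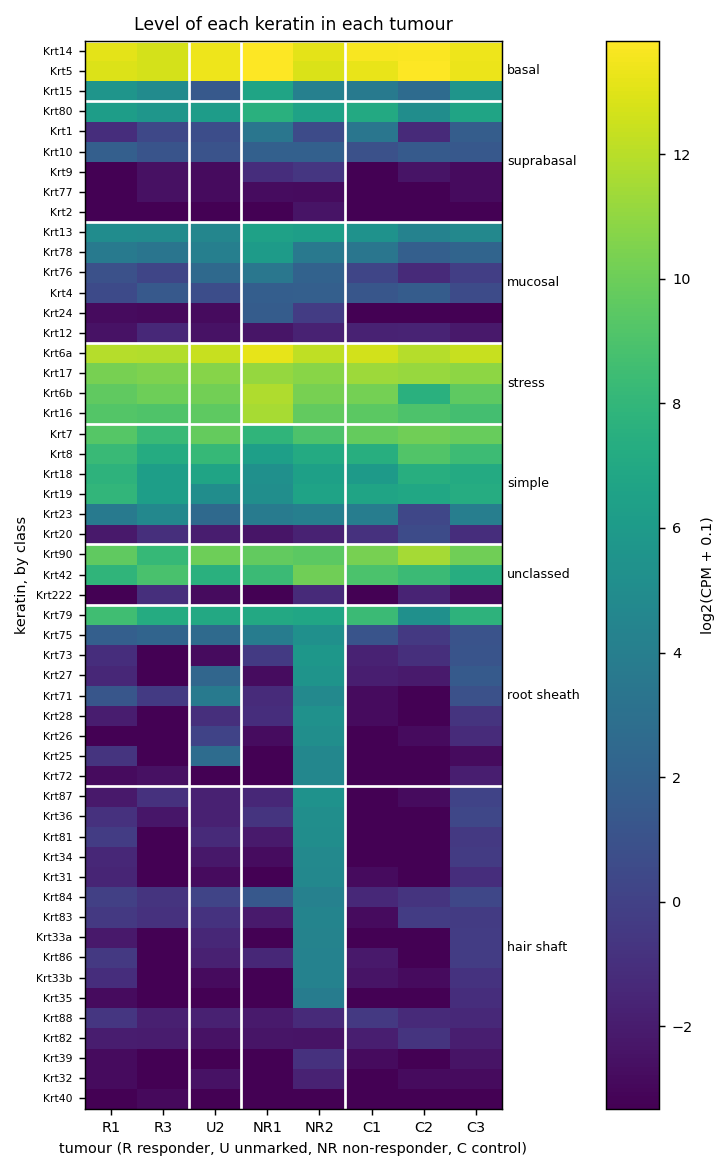
Level of each of the 53 keratins (rows, by class) in each of the 8 tumours (columns: R responder, U unmarked, NR non-responder, C control), as log2(CPM + 0.1). The basal and stress keratins are bright in all tumours, whereas the hair shaft keratins are bright in the column of non-responder 2.

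After a filter on low counts, 41 of the 53 keratins were tested. None passed an FDR of 0.05 in edgeR's quasi-likelihood test in any of 4 comparisons. For the Smyd3 ASO arm against control ASO, 0.0% of the 16911 genes tested passed as well, so this is a count of 0 for all genes. At an unadjusted p under 0.05, 9 of the 41 keratins were past the limit in this comparison (against 15.5% of all genes), and DESeq2 called 5 (12.2%, against 6.23% of all genes). Those 5 were Krt24, Krt75, Krt76 and Krt78, higher with the Smyd3 ASO, and Krt90, lower. Krt24 passed the count filter only through the non-responders, so its call is given as a description. The arms did not overlap for 3 keratins that were higher with the Smyd3 ASO, Krt24, Krt75 and Krt76 (7.32%, against 5.45% of all genes). For Krt24 this rested on 1 read in each responder and 1 in the unmarked tumour, against 0 reads in the controls. One keratin, Krt90, lay lower without overlap (2.44%, against 5.14% of all genes). The count at an unadjusted p under 0.05 was 2 without control 2.

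The basal keratins Krt14 and Krt5, which led the order per kilobase in both arms, were lower in responders than in controls. Krt14, the basal type I keratin, stood at 8731 and 6752 CPM in the responders, 10556 CPM in the unmarked tumour, 14055 and 9047 CPM in the non-responders, and 12848, 13362 and 10543 CPM in the controls. Both responders were below every control and both non-responders, while the non-responders overlapped the controls. For responder against control, its log2 fold change was -0.66 (SE 0.25, edgeR FDR 0.253). Krt5, its type II partner, stood at 7797 and 6766 CPM in the responders, 10831 CPM in the unmarked tumour, 13916 and 7384 CPM in the non-responders, and 9637, 14486 and 10037 CPM in the controls. The responders lay below the controls here too, apart by less than the range of the controls. Krt15, a basal keratin also known from the follicle bulge, was low and scattered, from 2.72 to 104 CPM in the Smyd3 ASO tumours and from 6.42 to 49.9 CPM in the controls. Per kilobase, the ratio of Krt5 to Krt14 ran from 0.653 to 0.821 in the Smyd3 ASO tumours and from 0.600 to 0.867 in the controls.

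The suprabasal keratins of skin were low. Krt10, a type I keratin of the differentiating layers, stood between 2.02 and 3.77 CPM in the Smyd3 ASO tumours and between 1.79 and 2.85 CPM in the controls. Its type II partner Krt1 stood at 0.365 and 1.23 CPM in the responders, 1.59 CPM in the unmarked tumour, 10.7 and 1.44 CPM in the non-responders, and 10.3, 0.312 and 3.28 CPM in the controls. Non-responder 1 and control 1 were the high tumours, and the arms overlapped. Krt80, a type II keratin of differentiating epithelia, had the highest level per kilobase of this class in both arms, at 51.0 to 188 CPM in the Smyd3 ASO tumours and 33.4 to 135 CPM in the controls. It was again highest in non-responder 1, and the arms overlapped. Krt2, Krt9 and Krt77 did not pass the filter, with at most 0.566 CPM in any tumour. None of the class passed the test in any comparison.

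All 5 mucosal keratins tested had their highest level in a non-responder, Krt4 in non-responder 2 and the others in non-responder 1. Krt13, the type I keratin above the basal layer of oral lining, stood at 32.0 and 30.6 CPM in the responders, 23.7 CPM in the unmarked tumour, 90.0 and 78.6 CPM in the non-responders, and 43.0, 19.7 and 25.4 CPM in the controls. Both non-responders were above every other tumour. Its log2 fold change was -1.43 (SE 0.34, edgeR FDR 0.506) for responder against non-responder and 1.52 (SE 0.30, FDR 0.302) for non-responder against control. Krt4, the type II partner of Krt13, was low, between 1.34 and 3.61 CPM in the Smyd3 ASO tumours and between 1.43 and 3.07 CPM in the controls. Krt76, a type II keratin of the hard palate and gums, stood at 1.78 and 1.09 CPM in the responders, 5.66 CPM in the unmarked tumour, 10.9 and 4.01 CPM in the non-responders, and 1.08, 0.312 and 0.799 CPM in the controls. Every Smyd3 ASO tumour was above every control, responder 3 by a narrow margin. The log2 fold change of Krt76 for the Smyd3 ASO arm was 2.67 (SE 0.82, FDR 0.189), and DESeq2 gave an FDR of 0.00739.

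Krt78, a type II keratin of stratified epithelia, stood at 13.0 and 10.2 CPM in the responders, 16.7 CPM in the unmarked tumour, 69.3 and 12.0 CPM in the non-responders, and 10.4, 3.61 and 4.54 CPM in the controls. Non-responder 1 was far above the rest, and responder 3 lay just below control 1. The log2 fold change for the arm was 1.97 (SE 0.76, edgeR FDR 0.272), and 1.07 without non-responder 1. Krt24, a type I keratin of differentiating keratinocytes, had 0 reads in all 3 controls. It reached 0.0405 and 0.0362 CPM in the responders, 0.0388 CPM in the unmarked tumour and 3.04 and 0.740 CPM in the non-responders. Against a floor of 3 counts over the controls, pooled Krt24 was at least 16.4-fold higher in the Smyd3 ASO arm and at least 43.5-fold higher in the non-responders, a bound that covers counting error only. Its reads came almost wholly from the 2 non-responders, which hold 83 of the 86 reads. Krt12, the corneal keratin of this class, did not pass the filter, with at most 0.290 CPM.

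**Figure D2:**
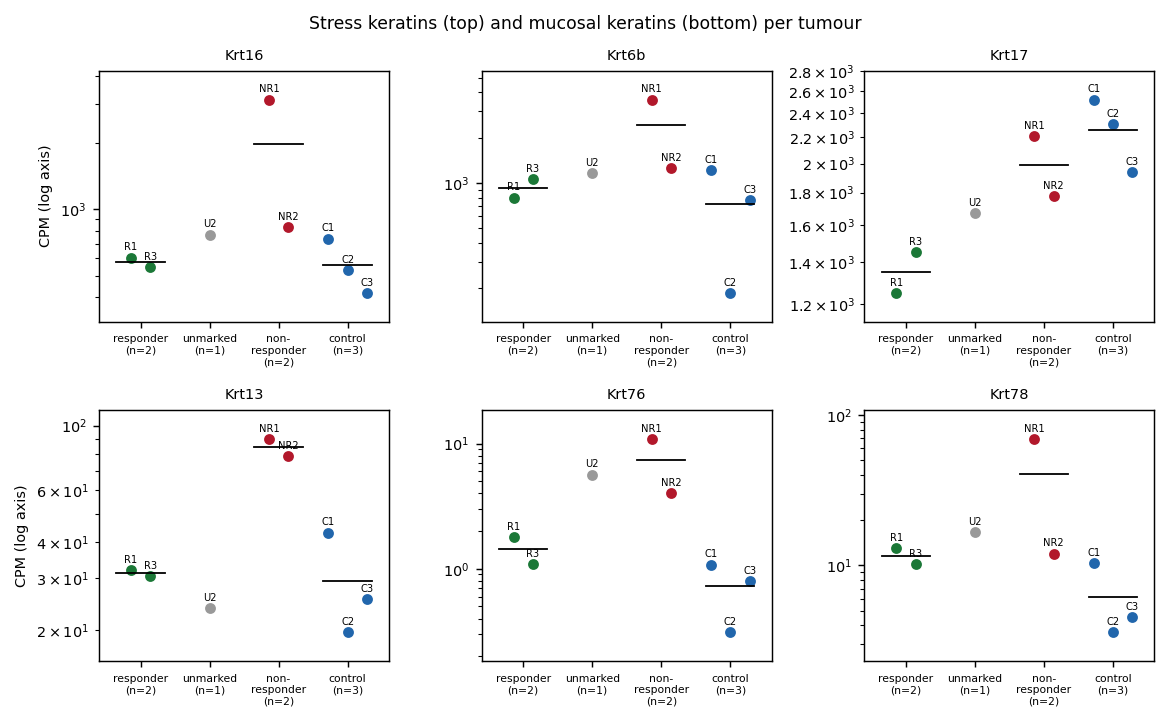
CPM per tumour on a log axis for 3 stress keratins (Krt16, Krt6b, Krt17) and 3 mucosal keratins (Krt13, Krt76, Krt78), with points for tumours and lines for means of groups with more than 1 tumour. Non-responder 1 is the highest of the Smyd3 ASO tumours in every panel, and for Krt13 both non-responders lie above all other tumours.

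The stress keratins were led by non-responder 1. The 4 genes summed to 6448 and 6819 CPM in the responders, 8857 CPM in the unmarked tumour, 18297 and 8527 CPM in the non-responders, and 10886, 6851 and 8369 CPM in the controls. Non-responder 1 alone stood above the controls. Krt16, the type I partner of the Krt6 keratins in wounded epidermis, stood at 605 and 547 CPM in the responders, 769 CPM in the unmarked tumour, 3127 and 833 CPM in the non-responders, and 737, 532 and 420 CPM in the controls. Both non-responders were above all controls and both responders. The log2 fold change of Krt16 was -1.78 (SE 0.57, edgeR FDR 0.539) for responder against non-responder and 1.81 (SE 0.50, FDR 0.389) for non-responder against control. Without non-responder 1 these became -0.53 and 0.57.

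Krt6b, a type II partner of Krt16, was also highest in non-responder 1, at 799 and 1062 CPM in the responders, 1166 CPM in the unmarked tumour, 3576 and 1256 CPM in the non-responders, and 1221, 187 and 766 CPM in the controls. Control 2 was the lowest of all 8 tumours. Krt6a, the more abundant type II stress keratin, stood at 3792 and 3758 CPM in the responders, 5251 CPM in the unmarked tumour, 9388 and 4662 CPM in the non-responders, and 6405, 3825 and 5243 CPM in the controls. Both responders lay below every control and both non-responders, responder 1 by a narrow margin from control 2. Krt17, a type I stress keratin, stood at 1252 and 1452 CPM in the responders, 1671 CPM in the unmarked tumour, 2207 and 1776 CPM in the non-responders, and 2523, 2308 and 1940 CPM in the controls. The responders were below both other labelled groups without overlap. Krt17 had a log2 fold change of -0.74 (SE 0.19, edgeR FDR 0.112) for responder against control, with an FDR of 0.00429 in DESeq2.

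Ratios within the stress class were looked at after the levels had been seen, and were not tested. Per kilobase, the ratio of Krt16 to Krt17 was 0.479 and 0.373 in the responders, 0.456 in the unmarked tumour, 1.40 and 0.465 in the non-responders, and 0.289, 0.228 and 0.214 in the controls. All 5 Smyd3 ASO tumours were above all 3 controls in this ratio. The ratio of Krt6b to Krt6a per kilobase ran from 0.228 to 0.412 in the Smyd3 ASO tumours and from 0.0528 to 0.206 in the controls, also without overlap. Krt6a, Krt6b, Krt16 and Krt17 had counts that were not whole numbers in all 8 libraries, as RSEM gives when reads fit several genes, so these ratios depend on how reads were divided among near copies.

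Among the keratins of simple epithelia, the controls held the higher levels of Krt7. Krt7, a type II keratin of simple and ductal epithelia, stood at 634 and 319 CPM in the responders, 889 CPM in the unmarked tumour, 239 and 530 CPM in the non-responders, and 871, 1124 and 912 CPM in the controls. Both responders and both non-responders were below every control, and the unmarked tumour overlapped them. The log2 fold change for the arm was -0.89 (SE 0.38, edgeR FDR 0.300), and for non-responder against control it was -1.33 (SE 0.41, FDR 0.419). That second value was -0.87 without non-responder 1 and -2.02 without non-responder 2. Krt8, the type II keratin of simple epithelia, stood at 311 and 151 CPM in the responders, 291 CPM in the unmarked tumour, 83.1 and 145 CPM in the non-responders, and 173, 578 and 337 CPM in the controls. The non-responders lay below both other labelled groups, the nearest value being that of responder 3. Krt18, the type I partner of Krt8, ran from 39.3 to 215 CPM in the Smyd3 ASO tumours and from 65.6 to 171 CPM in the controls, with overlap.

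Krt19, a type I keratin of simple epithelia, stood at 246 and 77.9 CPM in the responders, 34.2 CPM in the unmarked tumour, 35.8 and 96.3 CPM in the non-responders, and 104, 116 and 156 CPM in the controls. The non-responders were below the controls, and responder 1 was the highest of all. Krt20, known from gut epithelium and Merkel cells, did not reach 1 CPM in any tumour but control 2, and was at 0.0921 to 0.398 CPM in the Smyd3 ASO tumours against 0.378 to 1.38 CPM in the controls. Its log2 fold change for the arm was -1.86 (SE 0.61, edgeR FDR 0.209), and -1.03 without control 2. Krt23, a type I keratin of simple epithelia, overlapped in all 4 comparisons, at 5.82 to 25.3 CPM in the Smyd3 ASO tumours and 1.16 to 15.9 CPM in the controls.

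Krt90, a type II keratin outside these classes, was the tested keratin for which the Smyd3 ASO tumours all lay below the controls. It stood at 787 and 285 CPM in the responders, 1049 CPM in the unmarked tumour, 848 and 722 CPM in the non-responders, and 1269, 2957 and 1105 CPM in the controls. All Smyd3 ASO tumours were below all controls, with the unmarked tumour close to control 3, and control 2 stood well above the other controls. Its log2 fold change for the arm was -1.27 (SE 0.43, edgeR FDR 0.218) and -0.67 without control 2, and DESeq2 gave an FDR of 0.0422. Per kilobase, Krt90 averaged 291 CPM in the Smyd3 ASO tumours, where it was 7th among keratins, and 701 CPM in the controls, where it was 5th. Krt42, a type I keratin of the mouse nail, ran from 193 to 1117 CPM in the Smyd3 ASO tumours and from 161 to 506 CPM in the controls, with its highest level in non-responder 2.

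**Figure D3:**
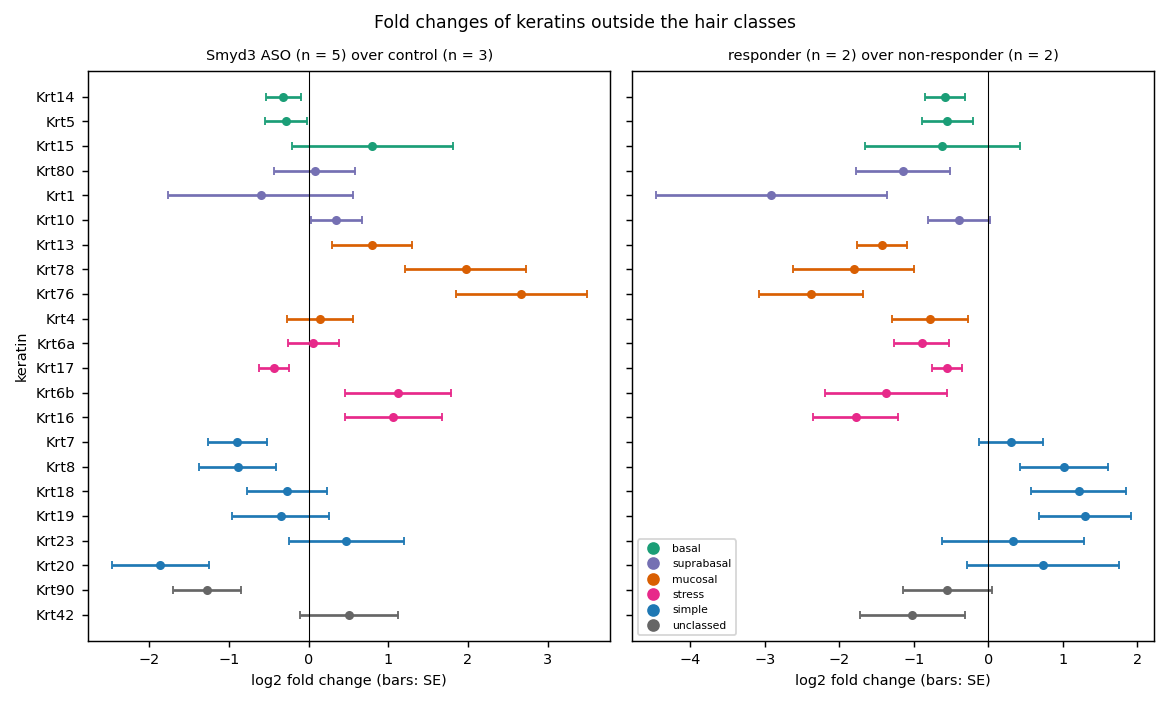
Log2 fold changes with SE bars from edgeR for 22 keratins outside the hair classes (Krt24, with 0 reads in the controls, is left out), for the Smyd3 ASO arm over control (left) and responder over non-responder (right), coloured by class. Mucosal and stress keratins lie left of 0 for responder over non-responder and simple keratins right of it, and none of the points passed an FDR of 0.05.

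Hair follicle keratins marked out 1 tumour. The 16 hair shaft keratins summed to 5.23 and 1.85 CPM in the responders, 3.22 CPM in the unmarked tumour, 4.19 and 278 CPM in the non-responders, and 1.41, 2.14 and 8.54 CPM in the controls. Non-responder 2 alone was high, and 13 of these 16 genes had their highest level there. For 10 of the 16, over 80% of all reads came from this tumour. Krt87, Krt36 and Krt81, the hair shaft keratins with the highest mean CPM, reached 42.7, 35.8 and 34.5 CPM in non-responder 2 and at most 1.13 CPM in any other tumour. Non-responder against control gave Krt81 a log2 fold change of 6.32 (SE 2.22, edgeR FDR 0.471), which became -0.60 without non-responder 2. Krt31 and Krt35, at 25.3 and 14.5 CPM in that tumour, did not pass the filter because no second tumour reached the limit.

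The 4 windows that follow are the 250 bases before the RefSeq start of 3 hair shaft keratins and 1 inner root sheath keratin that were high in non-responder 2 (RefSeq, GRCm38.p6). They were picked after the search: all were high in 1 tumour, and the 3 hair shaft windows are ones that hold both runs described next. Capitals mark a TATA box (TATAAA) and a core run of LEF1/TCF sites (CTTTGAA), factors known from hair formation.
Krt31, chr11:100050552-100050801, minus strand: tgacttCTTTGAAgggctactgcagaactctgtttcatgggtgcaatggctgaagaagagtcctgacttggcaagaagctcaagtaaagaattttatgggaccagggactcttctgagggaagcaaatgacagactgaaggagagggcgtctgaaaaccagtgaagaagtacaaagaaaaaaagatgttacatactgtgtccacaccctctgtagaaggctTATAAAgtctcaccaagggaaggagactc
Krt33b, chr11:100029869-100030118, minus strand: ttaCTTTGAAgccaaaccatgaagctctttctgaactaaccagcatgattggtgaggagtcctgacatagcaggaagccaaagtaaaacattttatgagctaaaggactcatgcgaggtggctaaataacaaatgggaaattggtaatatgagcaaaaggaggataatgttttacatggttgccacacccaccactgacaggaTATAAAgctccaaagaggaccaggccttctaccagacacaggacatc
Krt34, chr11:100041555-100041804, minus strand: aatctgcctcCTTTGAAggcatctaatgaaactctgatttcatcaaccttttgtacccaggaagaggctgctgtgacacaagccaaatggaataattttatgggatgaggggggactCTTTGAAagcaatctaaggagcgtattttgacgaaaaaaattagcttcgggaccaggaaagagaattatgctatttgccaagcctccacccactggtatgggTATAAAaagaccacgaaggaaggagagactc
Krt73, chr15:101802361-101802610, minus strand: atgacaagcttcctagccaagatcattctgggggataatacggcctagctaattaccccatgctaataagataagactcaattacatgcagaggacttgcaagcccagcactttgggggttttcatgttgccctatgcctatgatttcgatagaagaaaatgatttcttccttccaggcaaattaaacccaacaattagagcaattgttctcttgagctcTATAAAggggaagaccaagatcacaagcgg
The promoter table held 36 of the 53 keratins, and 30 had a start within 50 bases of the GENCODE start and were searched on both strands. TATAAA was found in 15 of these 30 windows, among them 5 of 8 hair shaft and 6 of 8 root sheath keratins, and in 12.4% of 32851 promoters of the same length. CTTTGAA was found in 5 of 8 hair shaft windows, in no window of the other classes, and in 4.5% of all promoters. Krt36 (35.8 CPM in non-responder 2) held neither run and Krt84 (18.6 CPM) held no CTTTGAA, while Krt32 and Krt39, which hold it, reached 0.218 and 0.435 CPM. TGANTCA, a run bound by AP-1, was found in 1 keratin window, that of Krt13, and in 6.7% of all promoters. No 2 matches overlapped. Krt31, Krt33b and Krt34 are close relatives, so their matches are not independent, the runs were chosen with results known, and a match is a description of letters and not of binding.

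Of the 9 root sheath keratins, 8 had their highest level in non-responder 2, Krt79 being the exception. Without Krt79, the 8 others summed to 7.25 and 5.18 CPM in the responders, 31.6 CPM in the unmarked tumour, 15.8 and 292 CPM in the non-responders, and 2.58, 1.20 and 9.63 CPM in the controls. Non-responder 2 was again the high tumour, and the unmarked tumour came next. In the unmarked tumour that level was made mostly of the inner root sheath keratins Krt71, Krt25 and Krt27, at 13.0, 6.48 and 4.85 CPM, while its hair shaft keratins stayed low. Krt73, another inner root sheath keratin, stood at 53.8 CPM in non-responder 2 and at 2.06 CPM or less in every other tumour. Krt26, also of the inner root sheath, had 0 reads in both responders, and against a floor of 3 counts over them it was at least 323-fold higher in the non-responders, almost all in non-responder 2.

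Krt75, the type II keratin of the companion layer, was spread more widely. It stood at 3.57 and 4.45 CPM in the responders, 5.90 CPM in the unmarked tumour, 14.4 and 38.3 CPM in the non-responders, and 2.12, 0.624 and 1.98 CPM in the controls. Every Smyd3 ASO tumour was above every control, and both non-responders were above the other 3 Smyd3 ASO tumours. Its log2 fold change was 3.07 (SE 0.94, edgeR FDR 0.191) for the arm, -2.71 (SE 0.65, FDR 0.506) for responder against non-responder and 4.06 (SE 0.59, FDR 0.266) for non-responder against control. Over the leave-one-out fits the value for the arm ran from 2.16 to 3.35, with the lowest value without non-responder 2. Without that tumour the other comparisons gave -1.85 and 3.18. Krt79, known from the funnel of the hair follicle and its sebaceous duct, had another pattern, at 383 and 149 CPM in the responders, 132 CPM in the unmarked tumour, 133 and 115 CPM in the non-responders, and 327, 39.2 and 215 CPM in the controls. Responder 1 was the highest tumour and control 2 the lowest, and the arms overlapped.

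Other hair genes stood beside these values. A list of 58 Krtap genes, which encode the matrix proteins of the hair shaft, summed to 1.22 and 0 CPM in the responders, 0.388 CPM in the unmarked tumour, 0.737 and 76.8 CPM in the non-responders, and 0.249, 0.0446 and 2.61 CPM in the controls. The 10 hair follicle markers that are not keratins summed to 91.8 to 511 CPM in the Smyd3 ASO tumours and 122 to 164 CPM in the controls. Of these, Tchh, the trichohyalin of the inner root sheath, made 316 CPM in non-responder 2 and at most 114 CPM elsewhere. Padi3 and S100a3, the next markers by mean CPM, were not highest in non-responder 2. Padi3 stood at 100 CPM there and 108 CPM in control 2, and S100a3 at 15.4 CPM there and 29.5 CPM in responder 1. Melanocyte markers were near 0, at 0.294 to 1.31 CPM for 7 genes. The highest sum was in non-responder 2, where Dct, which did not pass the filter, stood at 0.958 CPM, against at most 0.0460 CPM elsewhere. The part of hair follicles caught with the tumour in these keratin values was not tested.

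**Figure D4:**
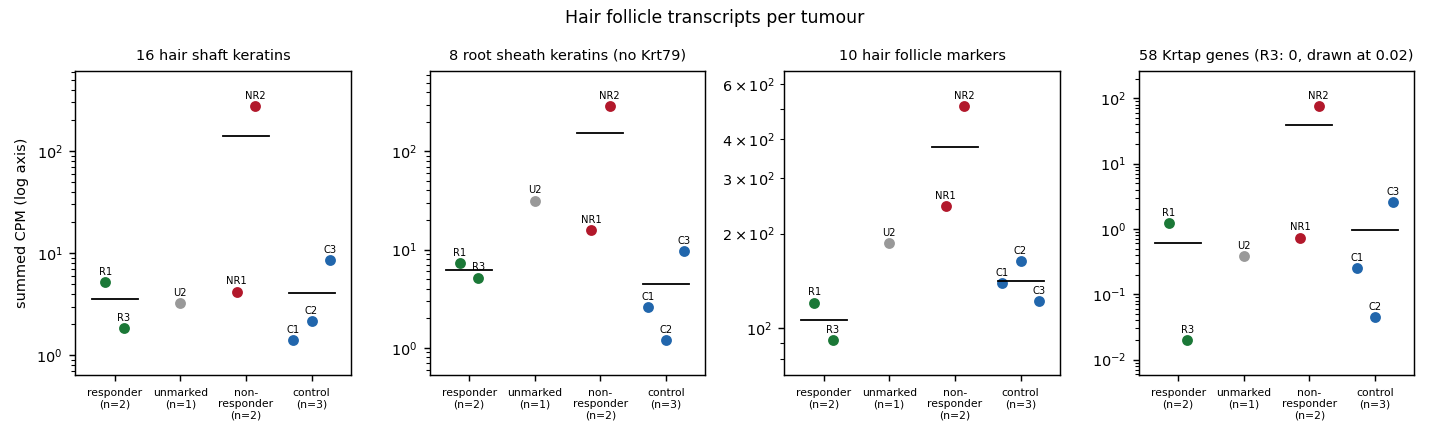
Summed CPM per tumour on log axes for 16 hair shaft keratins, 8 root sheath keratins without Krt79, 10 other hair follicle markers and 58 Krtap genes, with lines for group means (responder 3 has 0 for Krtap and is drawn at 0.02). Non-responder 2 is the highest tumour in all 4 panels, at 278, 292, 511 and 76.8 CPM.

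For responder against non-responder, edgeR called 0.0% of all genes and 0 keratins. At an unadjusted p under 0.05, 17 keratins were past the limit (41.5%, against 8.49% of all genes), all of them lower in responders (3.75% of all genes were lower at this limit). DESeq2 called 4 keratins (9.76%, against 1.33% of all genes), namely Krt13, Krt16, Krt75 and Krt84, all lower in responders. The groups of 2 did not overlap for 18 keratins that were lower in responders (43.9%, against 18.9% of all genes) and for 2 that were higher, Krt8 and Krt79 (4.88%, against 20.3%). Of the 17, 11 were hair shaft or root sheath keratins, with most of their reads in non-responder 2, and 6 were among the 23 tested keratins of other classes. The share over all keratins is therefore not read as a result about the family. Without non-responder 2, 11 keratins were past the unadjusted limit, and 6 were without responder 1 or without responder 3.

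For non-responder against control, edgeR again called 0.0% of all genes and 0 keratins. Here 23 keratins were past an unadjusted p of 0.05 (56.1%, against 9.24% of all genes), 20 of them higher and 3 lower (against 5.1% and 4.14% of all genes). Of the 20, 14 were hair shaft or root sheath keratins, with most of their reads in non-responder 2, and 6 came from the 23 tested keratins of other classes, as did the 3 that were lower. Nothing about the family is read from the share over all keratins. DESeq2 called 10 (24.4%, against 2.0% of all genes), which were Krt13, Krt16, Krt24, Krt75, Krt76, Krt78, Krt83 and Krt84, higher, and Krt7 and Krt8, lower. Krt83 was high in non-responder 2 alone, at 20.85 CPM. It stood at 0.138 CPM in non-responder 1 and at 0.0415, 0.713 and 0.673 CPM in the controls. Scaled to the epithelial markers instead, edgeR called Krt13, Krt24, Krt75 and Krt76 higher (9.76%, against 0.213% of all genes). With no count filter it called Krt24 and Krt76 (3.77% of 53, against 0.115% of all genes). Krt24 passed the count filter only through the non-responders, the group where it is high, so its calls are given as a description. The groups did not overlap for 10 keratins that were higher in non-responders (24.4%, against 12.2% of all genes) and 5 that were lower (12.2%, against 12.6%). Those 5 were Krt7, Krt8, Krt19, Krt20 and Krt90. The count past the unadjusted limit was 12 without non-responder 2, 12 without control 2 and 13 without control 1.

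For responder against control, edgeR called 280 genes (1.66%) and 0 keratins. At an unadjusted p under 0.05 there were 4 keratins, Krt7, Krt14, Krt17 and Krt90, all lower in responders (9.76%, against 16.6% of all genes, or 6.99% for genes that were lower), and 1 without responder 3. DESeq2 called Krt17 and Krt90 (4.88%, against 6.82%). The groups did not overlap for 6 keratins that were lower in responders, Krt5, Krt6a, Krt7, Krt14, Krt17 and Krt90 (14.6%, against 17.0% of all genes). Another 3 were higher without overlap, Krt24, Krt75 and Krt76 (7.32%, against 18.8%). Krt24 is among these on 1 read in each responder against 0 in the controls, a pooled level below the floor of 3 counts. In the same comparison 10 of the 12 muscle markers were called higher in responders, a count of 0 without control 1 or control 3, 5 without control 2 or responder 3, 6 without non-responder 2 and 1 with no count filter. Of 7 adipocyte markers tested, 3 were called higher, a count of 6 without responder 1, 1 without non-responder 1 or with no count filter, and 0 without any 1 of the controls, responder 3 or non-responder 2. The 8 leukocyte markers summed to 297 and 573 CPM in the responders and 234, 372 and 239 CPM in the controls, and 0 were called. The part of these cells in the lower keratin values was not tested. The count over all genes was 0 without control 1, 6 without control 3, 36 without responder 3, 110 without control 2, 134 without non-responder 2 and 171 without non-responder 1. This comparison and the one before it share their controls, so nothing is read from their overlap.

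The proteins that tie keratin filaments to cell junctions were followed in a list of 15 genes. They summed to 4956 and 4690 CPM in the responders, 5978 CPM in the unmarked tumour, 7786 and 6814 CPM in the non-responders, and 9073, 7383 and 7533 CPM in the controls. Both responders were below every control. Of the 15, 2 fell in responders against controls in edgeR (1.66% of all genes were called there), and none did in the other 3 comparisons (0.0% of all genes). Pkp1, a plaque protein of desmosomes, stood at 717 and 664 CPM in the responders and 1482, 1446 and 1202 CPM in the controls, with a log2 fold change of -0.995 (edgeR FDR 0.0423). Plec, which links keratins to hemidesmosomes, stood at 471 and 559 CPM in the responders and 1128, 1065 and 861 CPM in the controls, with a log2 fold change of -0.98 (FDR 0.0447). Both calls were lost when any of the controls, responders or non-responders was left out (FDR 0.0503 to 0.365) and under scaling to epithelial markers, where the FDR was 0.216 for Pkp1 and 0.218 for Plec. The fold changes stayed near their size, at -0.87 to -1.13 with a library left out and -1.03 for Pkp1 and -1.01 for Plec under that scaling. In a list of 15 transcriptional regulators and receptors of keratinocytes, such as Trp63 and Klf4, 0 passed in any comparison in edgeR, beside the same shares of all genes.

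**Figure D5:**
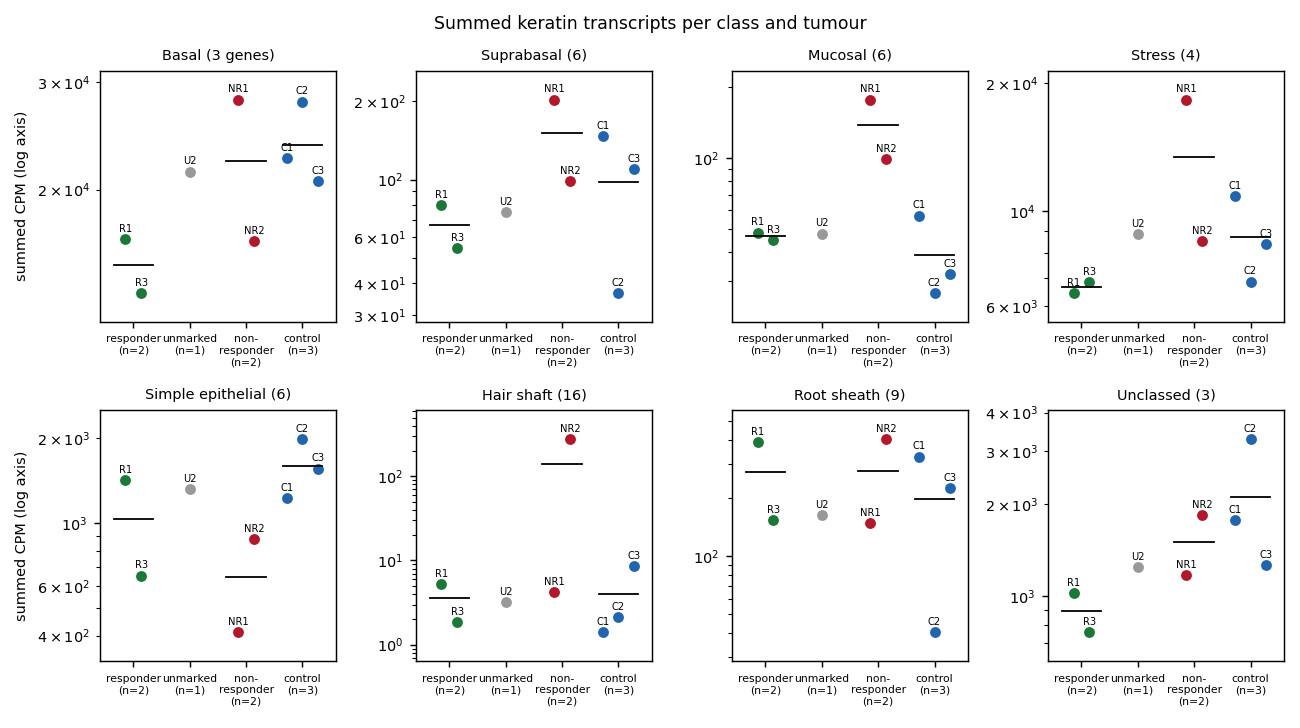
Summed CPM of each keratin class per tumour on log axes, with points for tumours and lines for the means of groups with more than 1 tumour. Non-responder 1 is highest for stress keratins (18297 CPM) and non-responder 2 for hair shaft keratins (278 CPM), while the simple keratins are lowest in non-responder 1 (412 CPM).

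Summed over its 6 genes, the simple class averaged 936 ± 431 CPM in the Smyd3 ASO tumours (SD, n = 5) and 1594 ± 382 CPM in the controls (SD, n = 3). The mucosal class averaged 83.3 ± 56.8 CPM in the Smyd3 ASO tumours and 38.7 ± 16.1 CPM in the controls. The differentiation genes that accompany keratins in the upper layers, such as Ivl and Sprr1a, summed to 794 to 2723 CPM over 19 genes in the Smyd3 ASO tumours and to 460 to 1958 CPM in the controls. Their highest sum was in non-responder 1, the tumour with the highest stress and mucosal sums.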

How the data were processed

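Bulk polyA RNA was sequenced from the 8 tumours with a stranded mRNA kit, per the labels' protocols. Tools listed in the submitters' processing notes are RSEM 1.3.0, STAR 2.7.0f, cutadapt 1.18 and bcl2fastq 2.17, with genome build mm10 and no order or settings. The authors deposited RSEM expected counts per gene, not scaled to library size, and 19 keratins had values that were not whole. All 55450 gene identifiers were found in GENCODE M21, which gave positions and exon lengths. Gene symbols are those of the deposited table.

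Counts were rounded to whole numbers (R 4.3.3). The filter kept genes with at least 0.424 CPM (10 reads in the median library) in 2 or more libraries and 15 reads in total, which left 16911 genes with 99.9% of the reads. TMM factors ran from 0.964 to 1.04, and 1 CPM is 22.1 to 27.3 reads before them. edgeR 4.0.16 (robust quasi-likelihood, two-sided, Benjamini-Hochberg FDR over all genes tested) compared the arms with treatment as the only term, and the response groups in a model of 4 groups over all 8 libraries. DESeq2 1.42.0, other scalings, no count filter, a replicate block and leaving out each library were alternatives. Folds against a group at 0 use 3 counts over that group and cover counting error only.

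Tested on simulated counts of 16911 genes, with 100 changed at each size, the steps recovered 52% of 2-fold and 87% of 4-fold changes for the arm. The shares were 23% and 83% for responder against non-responder, 33% and 87% for responder against control, and 27% and 85% for non-responder against control. False calls numbered 12 for the arm and 6, 11 and 15 for those 3 comparisons in that order. The changed genes were drawn only from genes with higher counts, and the shares were not split by count level. They therefore give no recovery rate for keratins with low counts. The members, classes and lists were chosen with earlier results of these data known. Named keratins are every tested member of the basal, suprabasal, mucosal, stress and simple classes, and the 3 with the highest mean CPM of the hair shaft, root sheath and unclassed members, plus any past FDR 0.05. Krt25, Krt26, Krt27, Krt31, Krt33b, Krt34, Krt35, Krt71, Krt83 and Krt84, and keratins below the filter, were named after their values were seen.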

Additional observations from a re-analysis of the deposited data

Results flagged for a closer look

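In 38 groups of values over the 5 Smyd3 ASO tumours (29 named keratins, class sums and the total), 13 had a highest or lowest tumour whose gap to its nearest neighbour exceeded 0.71 of the whole range. Chance gives this in about 1 of 20 groups of normally spread values. The values here were plain CPM and genes of one class are not independent, so that rate need not hold. Krt87, Krt36, Krt81 and Krt73 were picked by mean CPM, and 93.4% to 95.1% of their reads lay in non-responder 2. Their flags were thus nearly fixed in advance. Non-responder 1 stood apart upward for Krt6a at 9388 CPM, Krt6b at 3576 CPM and Krt16 at 3127 CPM, and for the sum of the 4 stress keratins at 18297 CPM. It also stood apart for Krt78 at 69.3 CPM, Krt1 at 10.7 CPM and Krt24 at 3.04 CPM. Krt24 passed the count filter only through the non-responders, so that its highest tumour was a non-responder was fixed in advance. Non-responder 2 stood apart upward for Krt87 at 42.7 CPM, Krt36 at 35.8 CPM, Krt81 at 34.5 CPM and Krt73 at 53.8 CPM, and for the sum of the 16 hair shaft keratins at 278 CPM. Responder 1 stood apart upward for Krt79 at 383 CPM. By this rule the flags of the 2 non-responders fell in different keratin classes. The rule looks for 1 tumour set apart, so it does not show keratins for which both were high. Krt13, at 90.0 and 78.6 CPM in the non-responders, was not flagged.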

How the results depend on the processing

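The 36 keratin fold changes followed here had an unadjusted edgeR p under 0.05 in the main fit, and came only from keratins named by rule. Hair shaft and root sheath keratins outside that rule, such as Krt34 and Krt28, were not followed, though some were past this limit. The counts below therefore do not cover those keratins, many of which had most of their reads in non-responder 2. None of the 36 passed the FDR in the main fit, so keeping a side of the threshold meant staying uncalled. Values that shrank counted as kept, such as Krt36 for non-responder against control, 5.56 and 0.41 without non-responder 2. A missing DESeq2 FDR also counted as kept. Of 456 alternative values, 428 kept their direction and side of the threshold, 24 passed it only under the alternative, and 4 changed sign. Those 4 all came without non-responder 2: Krt87 at 0.018 for responder against non-responder (lowest value over the libraries left out -7.40), and for non-responder against control Krt87 at -0.35 (highest 9.63), Krt81 at -0.60 (highest 11.70) and Krt73 at -0.47 (highest 6.44), since their reads lie mostly in that tumour. The number of keratins called was 0 in all 4 comparisons in edgeR, and 0 to 0 over the libraries left out. DESeq2 called 5 for the arm, 4 for responder against non-responder, 2 for responder against control and 10 for non-responder against control. In the last comparison epithelial scaling gave 4 and no count filter 2; the cause was not tested. Class means stayed within 1 SD under other scalings. Over all genes the arm gave 0, against 1053 in DESeq2, 52 with no count filter, 25 from the 4-group model and 249 without non-responder 1. Responder against control gave 280, against 1153, 499 with no filter and 447 with epithelial scaling. Responder against non-responder gave 0, against 225, 7, 15 and 22 without responder 1, and non-responder against control gave 0, against 339, 32 and 36. With the replicate block, over the 6 libraries numbered 1 to 3, 0 keratins and 249 genes were called, beside 0 and 285 without it. Same-numbered libraries deviated with correlations of -0.035, 0.001 and 0.077, and 1 of 3 Smyd3 ASO libraries correlated best with its own number. With so few libraries this check showed no pairing by number but cannot exclude it. Low counts limit Krt24, Krt20 and the hair keratins.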

Other observations

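Control 2 differed from the other controls in several keratins. It held the lowest Krt6b (187 CPM), Krt79 (39.2 CPM), Krt80 (33.4 CPM) and Krt23 (1.16 CPM) of all 8 tumours, and the highest Krt5 (14486 CPM), Krt8 (578 CPM), Krt7 (1124 CPM) and Krt90 (2957 CPM). The list of 7 fibroblast markers, such as Col1a1, summed to 4235 to 5791 CPM in the Smyd3 ASO tumours and to 6527, 11656 and 7263 CPM in the controls, with the highest sum in control 2.

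Responder 1 held the highest Krt18 (215 CPM) and Krt19 (246 CPM) of all 8 tumours, beside the highest Krt79 (383 CPM). Non-responder 1 held the lowest Krt7 (239 CPM), Krt8 (83.1 CPM) and Krt18 (39.3 CPM).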
